A study of Mus musculus with 4 samples.

Results

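The ephrin, Slit-Robo and netrin guidance genes are 39 protein-coding genes, chosen by symbol from the 25393 genes listed for these astrocytes. They are 5 ephrin-A and 3 ephrin-B ligands, 8 EphA and 5 EphB receptors, 3 Slit ligands and 4 Robo receptors, 3 secreted netrins, 2 netrin-G proteins, 4 Unc5 receptors, and the netrin receptors Dcc and Neo1. Astrocytes were cultured from the cortex and hippocampus of untreated C57BL/6 pups at postnatal day 1, and RNA-seq was made from 2 wild-type (WT) cultures and 2 cultures with the genotype tet1-/-. Each isolation took 2 mice, which were not kept apart, and ran for about 7 days before shaking and for 24 h after it. By the methods of the study the knockout is constitutive and not limited to astrocytes, so any other cell type left in the flask carries it too. The comparison asks which guidance genes differ in level between astrocytes labelled wild type and tet1-/-. Tet1 is an enzyme that oxidises methylated cytosine in DNA. The study describes 3 biological repeats a genotype for RNA-seq, and 2 a genotype were available here. Nothing in the labels says that the 2 libraries of a group came from separate litters. The p-values measure only the spread between these libraries, which may leave out that between litters.

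Eph receptors are receptor tyrosine kinases on the cell surface, and their ligands, the ephrins, are bound to the membrane of the neighbouring cell, so the pair signals mainly on contact. Slits and netrins are secreted, Slits repel growing axons through Robo receptors, and netrins attract through Dcc and repel through Unc5. In the brain EphA4 with its ligand ephrin-A3 is a known contact between dendritic spines and astrocyte processes.

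The libraries held between 18749610 and 22673555 reads on genes. Values are normalized counts, that is reads divided by 1 size factor per library, in which 1 read is worth 0.901 to 1.07, and FPKM, reads scaled to gene length and to the reads on genes in the library, where levels of different genes are compared. Tet1 itself had 266 and 121 normalized counts in WT, against 173 and 463 in the libraries labelled KO. For Tet1, limma gave a log2 fold change of 0.66 with a standard error of 0.65 (adjusted p = 0.691), and without KO replicate 2 the sign turned (-0.05). The targeted gene was therefore not lower, reads are summed over the whole gene whether or not a transcript holds the deleted part, and every direction below rests on the label. Astrocyte markers were abundant in WT (9 markers, summed 1490 and 1434 FPKM) but spread widely in the libraries labelled KO (2570 and 380.0 FPKM). Gfap made up much of these sums, with 687 and 765 FPKM in WT and 1871 and 117 in KO.

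Lists of markers for 11 cell types or states were read beside the guidance genes. All 10 proliferation genes were higher in the libraries labelled KO at an unadjusted p under 0.05 (limma), with sums of 2.80 and 13.7 FPKM in WT and 37.7 and 65.4 in KO. Of 10 microglia markers 9 were lower, with sums of 33.2 and 65.5 FPKM in WT and 4.67 and 2.02 in KO, and P2ry12 was at 0 in KO replicate 1. Mural markers summed to 78.3 and 266 FPKM in WT and 586 and 1409 in KO. Acta2, at 55.6 and 239.8 FPKM in WT and 564 and 1395 in KO, was higher and carried the rise of this sum. Rgs5 was lower. Pdgfrb (19.2 and 19.6 FPKM in WT, 18.5 and 9.03 in KO), Tagln (3.17 and 6.30 in WT, 3.79 and 4.56 in KO) and Kcnj8 were not called. Neuron markers (6 of 7 tested) summed to 19.3 to 29.7 FPKM, with Tubb3 and Dcx higher and Snap25 at 0 in both WT libraries. Dcx had only 1 and 0 reads in WT and 7 and 5 in KO. Oligodendrocyte precursor markers summed to 151 to 369 FPKM with Cspg4 lower, oligodendrocyte markers to 13.5 to 97.7 with 0 of 6 called, ependymal markers to 31.6 to 209.5 with 0 of 5 called, and neural progenitor markers to 497 to 838 with Nes higher. Endothelial markers (5 of 6 listed, 0 called) stayed at 0.551 to 1.45 FPKM and meningeal fibroblast markers at 2.02 to 9.56, with Col1a2 higher and Dcn lower. Of the astrocyte list Slc1a2 and Sox9 were lower and 7 of 9 were not called. The part of these cell types and states in the guidance gene results was not tested. In bulk RNA, fewer cells of a type and less RNA per cell cannot be told apart.

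Most of the guidance genes were read in these cultures. By mean FPKM over the 4 libraries, 10 of the 39 lay at 10 or more, 14 between 1 and 10, and 15 under 1. Ntn4, a netrin of basement membranes, was highest with 83.2 FPKM, followed by Ntn1 with 54.4, Neo1 with 26.9, Efnb1 with 23.9 and Efnb2 with 18.3. Dcc, the classical netrin-1 receptor of commissural axons, was near the floor with 0, 4, 9 and 8 reads, and Robo4, known from endothelium, and Ntn5 had at most 3 reads in any library. Epha8, Robo4 and Ntn5 had a mean under 1 normalized count and were not tested, which leaves 36.

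Of the 36 guidance genes tested, 8 were higher in the libraries labelled KO and 4 were lower at an unadjusted p under 0.05 with limma on log2(normalized count + 1). The 8 were Efna5, Efnb2, Epha4, Slit1, Slit3, Ntng1, Unc5a and Unc5b, and the 4 were Efna1, Ephb2, Ephb6 and Ntng2. This is 22.2% of the members higher and 11.1% lower, beside 4.54% and 9.18% of all 22094 genes tested. The median log2 fold change was 0.36 over the 36 members and -0.07 over all genes tested. With Benjamini-Hochberg adjustment over all genes limma called 0 members (0% of all genes, of which 3032 had an unadjusted p under 0.05, and lowest adjusted p among members 0.147), and edgeR's quasi-likelihood test also called 0 (0% of all genes) with 8 members higher and 3 lower at an unadjusted p under 0.05, beside 4.23% and 8.14% of all genes. DESeq2 called Efna5, Ntng1 and Unc5b higher and Efna1 lower at an adjusted p under 0.05, beside 1.69% of 17024 genes higher and 4.8% lower. Both libraries labelled KO lay above both WT libraries for 14 of the 36 members and below for 8, beside 22.5% and 25.4% of all genes tested. The number higher was 3 without WT replicate 1 and 4 without WT replicate 2, and the number lower was 2 and 1, against 7 and 9 higher and 4 lower without KO replicate 1 or 2. Over all genes the shares moved too, to 0.911% higher and 3.82% lower without WT replicate 1, 2.01% and 4.18% without WT replicate 2, 8.32% and 13.7% without KO replicate 1, and 4.15% and 9.69% without KO replicate 2. The genes behind these counts changed too. Without KO replicate 2 Slit1, Unc5a, Ephb6 and Ntng2 lost the call, while Epha6, Ntn4, Neo1, Efna3 and Ntn1 gained it. Without KO replicate 1 Epha4 and Slit1 lost it and Epha2 gained it. Without 1 library its group holds a single library, which limma then assumes to vary like the other group, here and in each such p below.

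**Figure D1:**
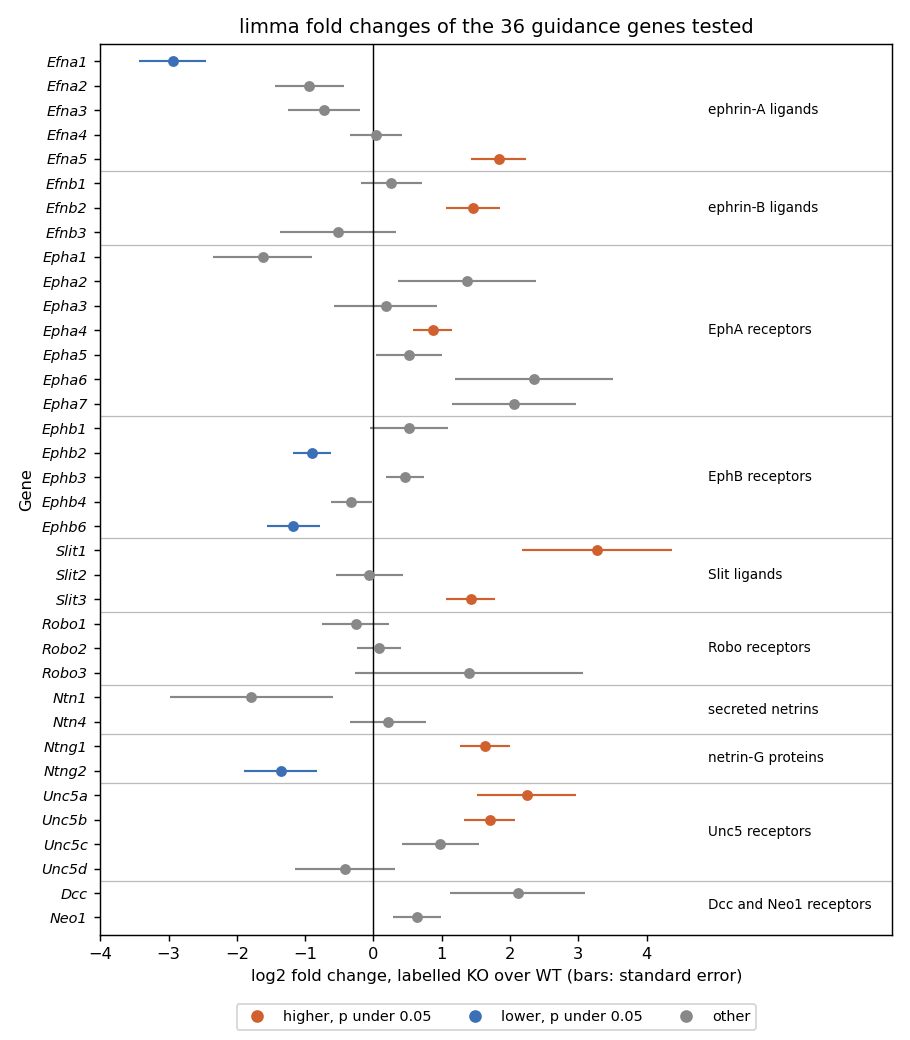
log2 fold changes of the 36 guidance genes tested (x axis, libraries labelled KO over WT, bars show the standard error from limma), grouped by class with ligands and receptors apart. The 8 genes higher and 4 lower at an unadjusted p under 0.05 are coloured, and Slit1 and Efna1 lie furthest out on either side at 3.28 and -2.94.

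**Figure D2:**
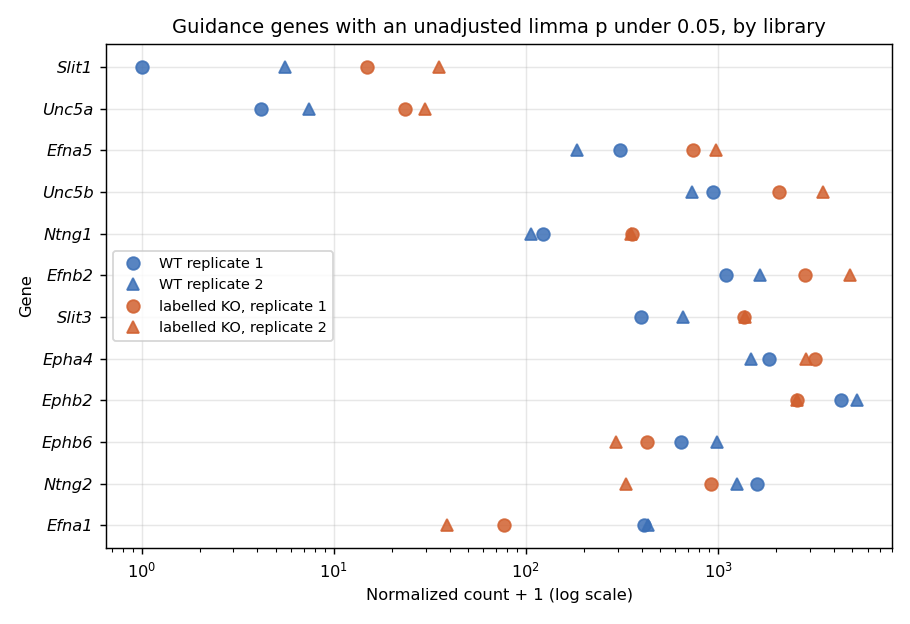
Normalized count plus 1 of the 12 guidance genes with an unadjusted limma p under 0.05 in each library (log x axis, circles replicate 1, triangles replicate 2, blue WT, orange libraries labelled KO). The 2 colours do not overlap for any of the 12, which follows largely from choosing them by p in these libraries. Of all genes tested, 22.5% had both libraries labelled KO above both WT and 25.4% below. The Efna1 points at 76.0 and 37.9 in the libraries labelled KO stand furthest from WT among genes above 100 counts in WT.

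Promoters are shown for Efna1, Efna5 and Unc5b, which DESeq2 also called, and for Ephb2, the receptor with the highest level among the genes that were lower. Ntng1, the other gene that DESeq2 called, is not shown because its window overlaps annotated exons. Each line holds the 250 bases before a RefSeq start (GRCm38.p6, minus strand for all 4 genes, written 5′ to 3′ in the direction of the gene), with every CG dinucleotide, the site at which Tet enzymes mostly act, in capitals. The windows lie at chr3:89279646-89279895 for Efna1, chr4:136836013-136836262 for Ephb2, chr17:62881318-62881567 for Efna5 and chr10:60831582-60831831 for Unc5b, and none overlaps an annotated exon. Efna1 has 2 RefSeq starts. The window shown belongs to the inner start and lies within the annotated gene, while that of the outer start, at the 5′ end of the gene, overlaps an exon and is not shown. Methylation of these windows was not analysed here.
Efna1: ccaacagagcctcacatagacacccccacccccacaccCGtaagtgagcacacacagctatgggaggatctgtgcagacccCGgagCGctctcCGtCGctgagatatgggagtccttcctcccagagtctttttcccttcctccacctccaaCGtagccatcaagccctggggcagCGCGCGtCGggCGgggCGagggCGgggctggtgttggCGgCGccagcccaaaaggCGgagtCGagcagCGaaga
Ephb2: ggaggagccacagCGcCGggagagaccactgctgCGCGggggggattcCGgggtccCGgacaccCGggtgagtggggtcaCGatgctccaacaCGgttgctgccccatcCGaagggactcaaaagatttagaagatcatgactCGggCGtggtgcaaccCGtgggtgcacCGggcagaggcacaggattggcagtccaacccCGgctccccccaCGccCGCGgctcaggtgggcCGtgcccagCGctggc
Efna5: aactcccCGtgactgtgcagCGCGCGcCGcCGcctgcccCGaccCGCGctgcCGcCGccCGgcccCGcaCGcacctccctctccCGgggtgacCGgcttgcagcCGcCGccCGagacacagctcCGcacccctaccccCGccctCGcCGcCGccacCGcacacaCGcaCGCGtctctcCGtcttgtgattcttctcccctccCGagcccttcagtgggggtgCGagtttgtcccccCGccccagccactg
Unc5b: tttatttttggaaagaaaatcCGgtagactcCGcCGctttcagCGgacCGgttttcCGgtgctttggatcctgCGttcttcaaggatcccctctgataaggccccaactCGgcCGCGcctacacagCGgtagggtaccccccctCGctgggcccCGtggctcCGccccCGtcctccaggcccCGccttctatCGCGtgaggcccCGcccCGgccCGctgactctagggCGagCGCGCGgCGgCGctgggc

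CG dinucleotides numbered 18 in the Efna1 window and 20 in that of Ephb2, and 27 in that of Unc5b and 32 in that of Efna5. The last was above 95.4% of all 32851 windows in the table, whose median was 6. RefSeq windows were found for 34 of the 39 guidance genes, 39 windows in all, with between 2 (Robo4, Ntn5) and 46 (Epha8) CG dinucleotides and a median of 18. Windows of the genes that were higher held 14 to 35 and those of the genes that were lower 4 (Ntng2) to 27, so the ranges overlapped. On both strands GGGCGG, the GC box, was in 26 of the 39 member windows (66.7%) and in 32.7% of all windows. CCAAT was in 14 (35.9%, against 33.8% of all windows), and TATAAA in 2, those of Slit2 and Efnb2 (5.13%, against 12.4%). A match gives letters only. GGGCGG itself holds a CG, and the median window held 18 CG among members and 6 among all windows. The part of this difference in the GC box share was not tested. Windows of the same gene were counted apart, and those of Epha7 overlap each other. No window was found for Dcc, Efnb3, Ntn1, Slit1 and Unc5d.

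The ephrin-A ligands, anchored to the membrane by a lipid, differed in make-up between the labels. Efna1 (ephrin-A1, a preferred ligand of EphA2) had 409 and 429 normalized counts in WT, against 76.0 and 37.9 in the libraries labelled KO. Both KO values lay far below both WT values, which differed little from each other. For Efna1, limma gave a log2 fold change of -2.94 (standard error 0.49, unadjusted p = 0.00139, adjusted p = 0.147). DESeq2 gave Efna1 an adjusted p of 3.89e-05, the lowest in a range up to 0.967 over 15 alternatives, in all of which its unadjusted p stayed under 0.05. Efna1 (ENSMUSG00000027954) lies on chromosome 3 from 89271733 to 89281142 on the minus strand (mm10). Efna5 (ephrin-A5, known from retinal axon maps) had 307 and 184 normalized counts in WT, against 737 and 978 in the libraries labelled KO. Here the order was the opposite and the groups again did not overlap. The limma estimate for Efna5 was a log2 fold change of 1.83 (standard error 0.40, unadjusted p = 0.00479, adjusted p = 0.195), and without WT replicate 2 its p was 0.0503. Its DESeq2 adjusted p was 0.0118, in a range from 0.0118 to 0.967 over the alternatives. Efna5 (ENSMUSG00000048915) lies on chromosome 17 from 62604184 to 62881317 on the minus strand.

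The other ephrin-A ligands were not called. Efna3 and Efna2 had lower values in the libraries labelled KO with no overlap, with 133 and 144 against 57.8 and 121 normalized counts for Efna3 and 79.0 and 115 against 43.9 and 55.0 for Efna2. Efna4 had 249.7 and 335 in WT and 249.4 and 352 in KO, and the sign of its log2 fold change (0.03) turned under TMM scaling and equal sums. Efna1, Efna3 and Efna4 lie next to each other on chromosome 3 on the minus strand, 32.8 kb and 10.4 kb apart with no other protein-coding gene between them. Along that stretch the log2 fold changes were -2.94, -0.72 and 0.03.

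Summed over the 5 ephrin-A ligands the level was 27.4 and 28.9 FPKM in WT against 19.2 and 27.7 in KO, with a mean of 28.1 ± 1.08 against 23.4 ± 6.00 (SD, n = 2 each). An exact permutation test of 2 against 2 libraries cannot give a two-sided p below 0.333, so this and the other sums are given as values. Within the sum Efna1 made up 40.8% and 38.9% in WT and 9.78% and 3.70% in KO. The Efna5 share was 13.9% and 7.57% in WT and 43.1% and 43.4% in KO. Efna4 held 28.5% to 39.4% in every library.

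**Figure D3:**
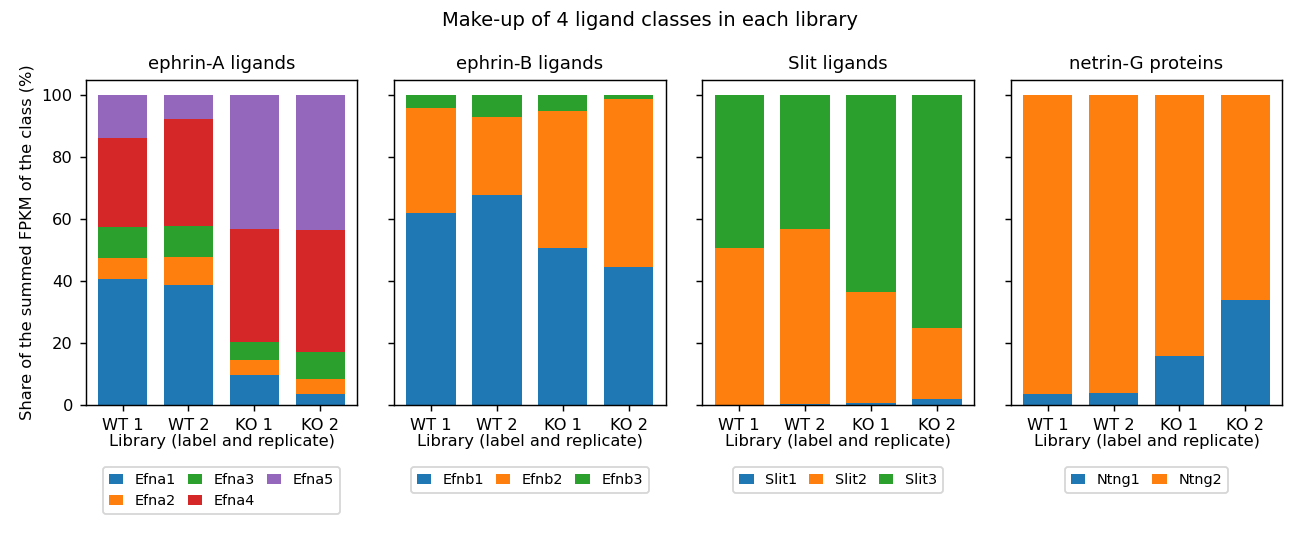
Share of each gene in the summed FPKM of its class (y axis, percent) in each of the 4 libraries, for ephrin-A ligands, ephrin-B ligands, Slit ligands and netrin-G proteins. In the first panel Efna1 is 40.8% and 38.9% of the bar in WT and under 10% in the libraries labelled KO, where Efna5 is 43.1% and 43.4%.

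Among the ephrin-B ligands, which span the membrane and signal in both directions, Efnb2 stood out. Efnb2, a marker of arterial endothelium that neural cells also make, had 1100.0 and 1649.7 normalized counts in WT, against 2839.8 and 4837 in the libraries labelled KO. The groups did not overlap, and the larger spread was among the KO libraries. For Efnb2, limma gave a log2 fold change of 1.46 (standard error 0.40, unadjusted p = 0.0124, adjusted p = 0.253). The limma p of Efnb2 was 0.123 without WT replicate 1 and 0.0601 without WT replicate 2. Efnb1 ranged from 1020.0 to 2224 and Efnb3 from 44.2 to 209.7 normalized counts with overlapping groups. Endothelial markers stayed at or under 1.45 FPKM in all libraries, beside 18.7 and 34.9 FPKM of Efnb2 in KO, and the part of endothelial cells in the Efnb2 level was not tested. The summed level of the class was 23.8 and 45.6 FPKM in WT and 42.1 and 64.4 in KO, which overlap.

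Of the EphA receptors, which bind mainly ephrin-A ligands, only Epha4 was called by limma. Epha4 had 1839 and 1488 normalized counts in WT, against 3191 and 2856 in the libraries labelled KO. Replicates lay close together in both groups. For Epha4 the log2 fold change was 0.87 (standard error 0.29, unadjusted p = 0.0264, adjusted p = 0.312, limma). The p of Epha4 was 0.0762 without WT replicate 1, 0.141 without WT replicate 2 and 0.0575 without KO replicate 1. Epha2 had 253 and 399 in WT and 280.4 and 2405 in KO, so that KO replicate 2 was 8.57 times KO replicate 1. Without KO replicate 1, a log2 fold change of 2.92 for Epha2 had an unadjusted p of 0.00626, which rests on 1 KO library and leaves out the spread between the KO libraries. Epha1 had 52.3 and 26.7 against 16.1 and 8.11, and 2 genes on the other strand overlap it, 1 of them the protein-coding Zyx. The remaining EphA receptors were low, at most 0.669 mean FPKM. Epha5, the highest of them, had 208 and 169 reads in WT and 345 and 214 in KO, and was not called. Epha7 and Epha6 had no overlap between groups, with 2.13 and 11.0 against 20.3 and 29.7 normalized counts for Epha7 and 1.07 and 0 against 18.2 and 1.80 for Epha6. Epha6 was at or under 2 reads in 3 of the 4 libraries, and Epha7 had 2 reads in WT replicate 1. Epha8 had 4 reads in WT replicate 2 and 0 elsewhere. The summed EphA level was 15.5 and 13.9 FPKM in WT and 22.1 and 43.9 in KO. Epha2 made up 12.3% of this sum in KO replicate 1 and 58.0% in KO replicate 2.

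The EphB receptors, partners of the ephrin-B ligands, held both of the receptor genes that were lower. Ephb2, known for its part in excitatory synapses, had 4340.4 and 5265 normalized counts in WT, against 2571 and 2567 in the libraries labelled KO. The KO libraries were nearly equal and both lay below WT. For Ephb2, limma gave a log2 fold change of -0.90 (standard error 0.28, unadjusted p = 0.0218, adjusted p = 0.294), and p was 0.0712 without WT replicate 1 and 0.122 without WT replicate 2. Ephb6, a receptor without kinase activity, had 639 and 988 in WT and 425 and 292 in KO. The groups did not overlap and the log2 fold change was -1.17 (standard error 0.39, unadjusted p = 0.0270, adjusted p = 0.314, limma). Its p was 0.0624 without WT replicate 1, 0.185 without WT replicate 2 and 0.0888 without KO replicate 2. Ephb6 and Epha1 lie 738 kb apart on chromosome 6. Ephb3 had 786 and 803 in WT and 1074 and 1108 in KO and Ephb4 1122 and 1429.9 against 1088 and 936, neither called. Ephb1 ranged from 44.8 to 110.3 normalized counts with overlap. The EphB sum was 44.0 and 53.8 FPKM in WT and 32.9 and 32.7 in KO, with no overlap.

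**Figure D4:**
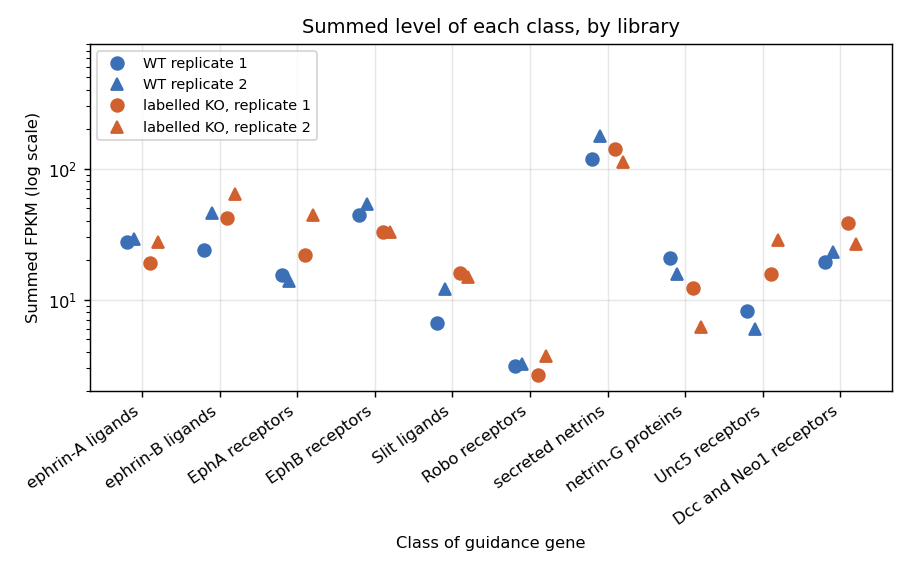
Summed FPKM of each class of guidance gene (log y axis) in each library (circles replicate 1, triangles replicate 2, blue WT, orange libraries labelled KO). EphA, Slit, Unc5 and Dcc with Neo1 sums lie higher in both libraries labelled KO, EphB and netrin-G sums lie lower, and the other 4 sums overlap.

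Next, the Slit ligands were compared. Slit3 had 397 and 653 normalized counts in WT, against 1356 and 1379 in the libraries labelled KO. Both KO values were above WT and close to each other. For Slit3, limma gave a log2 fold change of 1.42 (standard error 0.36, unadjusted p = 0.00874, adjusted p = 0.229), and without WT replicate 1 the p was 0.0697. Slit1 was read 0 and 5 times in WT and 13 and 38 times in KO, and no other gene overlaps it. Its log2 fold change of 3.28 (standard error 1.10, unadjusted p = 0.0278, adjusted p = 0.315, limma) was 1.98 with a pseudocount of 5, and with a pseudocount of 0.1 its p was 0.0610. The p of Slit1 was 0.160 without WT replicate 1, 0.0738 without KO replicate 1 and 0.138 without KO replicate 2. Slit2, the longest gene of the set by deposited gene length (25433 bases), had 1710.4 and 3581 in WT and 3200.5 and 1765 in KO. The Slit3 share of the class sum was 49.3% and 43.2% in WT and 63.6% and 75.1% in KO.

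No Robo receptor was called. Robo2 had 690.3 and 554 normalized counts in WT, against 733 and 579.5 in the libraries labelled KO, and Robo1 354 and 543 against 252 and 534. Both overlapped, and their log2 fold changes were 0.08 (standard error 0.32) and -0.26 (standard error 0.49). Robo3, a divergent Robo of crossing axons, was read 1 and 13 times in WT and 2 and 65 times in KO, and replicate 2 was the higher library in both groups. Robo3 and Robo4 are 554 bases apart on chromosome 9, and Robo4 had 0 reads in both WT libraries. The Robo sum was 3.11 and 3.23 FPKM in WT and 2.66 and 3.73 in KO, the lowest of the 10 class sums in each library.

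Secreted netrins were the most abundant class, and the 2 that were tested spread widely between the libraries labelled KO. Ntn1 had 4878 and 14386 normalized counts in WT, against 724 and 8087 in the libraries labelled KO. KO replicate 2 was 11.2 times KO replicate 1, and WT replicate 2 was 2.95 times WT replicate 1. The limma log2 fold change of Ntn1 was -1.79, with an unadjusted p of 0.189 in the main fit and 0.0213 with a replicate block. The labels do not say that libraries with the same number belong together. Without KO replicate 2, Ntn1 had a log2 fold change of -3.53 and an unadjusted p of 0.0143, but that p takes its spread within groups from the WT pair and leaves out the spread between the KO libraries. Ntn4 had 5988 and 5249.8 in WT and 11248 and 3764 in KO, so that the KO libraries lay on either side of WT. Without KO replicate 2 the unadjusted limma p of Ntn4 was 0.0220, which rests on the high value of KO replicate 1 alone. Gfap split the KO libraries in the same direction as Ntn4, with 1871 FPKM in replicate 1 and 117 in replicate 2. Markers of other cell types split them in either direction. Foxj1 (ependymal) had 134 and 29.3 FPKM in KO replicates 1 and 2, and Acta2 (mural) 564 and 1395. A link of any of these with Ntn4 was not tested. The class sum was 119 and 177 FPKM in WT and 141 and 114 in KO.

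The netrin-G proteins, which are held on the membrane by a lipid anchor and bind the NGL proteins instead of Dcc, differed in opposite directions. Ntng1 (partner of NGL-1) had 122 and 105 normalized counts in WT, against 354 and 349.7 in the libraries labelled KO. Replicates lay close together in each group. For Ntng1, limma gave a log2 fold change of 1.63 (standard error 0.37, unadjusted p = 0.00549, adjusted p = 0.203), and the unadjusted p stayed under 0.05 in all 15 alternatives. Its DESeq2 adjusted p was 0.0158, in a range from 0.0158 to 0.967. Ntng1 (ENSMUSG00000059857) lies on chromosome 3 from 109780040 to 110144011 on the minus strand. Ntng2 (partner of NGL-2) had 1591 and 1259.8 in WT and 915 and 332 in KO. The groups did not overlap, but the KO libraries differed by more than the WT libraries did. The log2 fold change of Ntng2 was -1.36 (standard error 0.53, unadjusted p = 0.0482, adjusted p = 0.362, limma). The call of Ntng2 was lost in 10 of 15 alternatives, with a limma p of 0.258 without WT replicate 1, 0.196 without WT replicate 2 and 0.0969 without KO replicate 2. In FPKM Ntng2 remained the larger of the pair in every library, and its share of the sum was 96.4% and 96.1% in WT and 84.2% and 66.2% in KO.

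Unc5 receptors mediate repulsion by netrins and act as dependence receptors. Unc5b, which is also known from blood vessels, had 941 and 735 normalized counts in WT, against 2083 and 3508 in the libraries labelled KO. Both KO values lay well above both WT values. For Unc5b, limma gave a log2 fold change of 1.70 (standard error 0.37, unadjusted p = 0.00481, adjusted p = 0.195), and the p was 0.0776 without WT replicate 2. Its DESeq2 adjusted p was 0.0121, in a range from 0.0121 to 0.967. Unc5b (ENSMUSG00000020099) lies on chromosome 10 from 60762593 to 60831581 on the minus strand, 1.97 Mb from Tet1. Unc5a had 3 and 7 reads in WT and 21 and 32 in KO. This gave a log2 fold change of 2.24 (standard error 0.72, unadjusted p = 0.0239, adjusted p = 0.304, limma), and p was 0.134 without WT replicate 1, 0.0633 without WT replicate 2 and 0.0682 without KO replicate 2. Hk3 overlaps Unc5a on the opposite strand, and reads of the 2 genes cannot be told apart if counting ignored strand, which the sources do not state. Unc5c had 115 and 49.7 against 174 and 129.8 normalized counts, with no overlap and no call. Unc5d had 64.0 and 25.7 against 21.4 and 42.4, and the sign of its log2 fold change (-0.42) turned under quantile normalization. Unc5b made up 91.6% to 96.8% of the class sum, which was 8.20 and 5.96 FPKM in WT and 15.8 and 28.7 in KO.

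Neo1 (neogenin), a netrin receptor that also binds repulsive guidance molecules, had 3375 and 4230.0 normalized counts in WT, against 7397 and 4686 in the libraries labelled KO. The groups did not overlap, but Neo1 was not called (log2 fold change 0.64, standard error 0.35, adjusted p = 0.478, limma). Without KO replicate 2, on 1 KO library, its unadjusted p was 0.0312. Dcc stayed under 10 reads in every library and was not called (adjusted p = 0.427, limma). Neo1 made up at least 99.8% of the summed FPKM of the pair.

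The wider pathway was read from a list of 65 partners, 64 of which were tested. Of these 6 were higher and 5 lower at an unadjusted p under 0.05 (limma), 9.38% and 7.81%, beside the same 4.54% and 9.18% of all genes. Among 24 tested partners of Eph and ephrins, 2 were higher (Kalrn and Grip1, a scaffold that binds ephrin-B tails) and 1 lower (Arhgef16). Of 20 partners of Slit and Robo, Gpc1 (glypican-1, a heparan sulfate proteoglycan that binds Slit) and Vasp were higher and Sdc4 was lower. Of 20 netrin partners, Dscam and Trim9 (a ubiquitin ligase that binds Dcc) were higher and Flrt1, Rgma (a ligand of neogenin) and Lrig2 were lower. Dscam was near the floor, with 0 and 1 reads in WT and 17 and 11 in KO. Trim9 had 224 and 209 normalized counts in WT, against 1206 and 657 in the libraries labelled KO, Grip1 132 and 154 against 370.4 and 565, and Arhgef16 483 and 160.0 against 36.4 and 13.5. Sdc4, the most abundant of the 11, had 17276 and 20734 against 7145 and 7704, and Flrt1, a Unc5 ligand, 334 and 320.0 against 56.7 and 14.4. DESeq2 called these 5 at an adjusted p under 0.05, 2 of them higher and 3 lower of 63 partners, beside 1.69% and 4.8% of all genes. Limma called 0 of the 64 with adjustment. The number higher was 1 without either WT library, 10 without KO replicate 1 and 7 without KO replicate 2, and the number lower was 1 and 2 without WT replicate 1 and 2.

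Of the 39 guidance genes 25 overlap another annotated gene and 19 overlap one on the opposite strand (GENCODE M21). Efna1, Efna5, Ephb2, Ephb6 and Slit1 overlap none. Efnb2 and Unc5b overlap transcripts of uncertain status on their own strand, and Slit3 and Ntng1 overlap small RNA genes and pseudogenes. Slit3 also overlaps a sense-intronic transcript. On their own strand Epha4 overlaps a microRNA gene and Ntng2 a processed transcript. Unc5a overlaps Hk3, as given above.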

How the data were processed

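The authors filtered paired-end reads and aligned them to mm10; the counter and its strand setting are not given in the sources used here. For each gene and library the authors deposited a signal, a read count divided by a size factor. All values (100%) were whole multiples of 1 read (tolerance 0.001 reads), so counts were recovered. The deposited genotype means, log2 fold changes and p-values were not used. The test planned for FPKM was applied to normalized counts. The main test was limma 3.58.1 in R 4.3.3 (eBayes with a trend) on log2(normalized count + 1), a scale that understates changes of low genes, over genes whose mean reached 1, and p-values were adjusted by Benjamini-Hochberg. The recovered counts were also tested with edgeR 4.0.16 (0 genes called with adjustment) and DESeq2 1.42.0 (1106 called), and all 3 were tested on simulated data. FPKM used the deposited gene lengths. Python 3.11.15, numpy 2.4.6, pandas 2.3.3 and matplotlib 3.10.9 were used. Members and lists were chosen with earlier results of these data known. All members are named, with fold changes for those called. Alternatives were other pseudocounts (0.1 and 5), filters (none, and a mean of 10), scalings, tests, a replicate block and leaving out each library. Member positions were matched to GENCODE M21 (39 of 39 found, 38 with the same ends).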

Additional observations from a re-analysis of the deposited data

How the results depend on the processing

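With 2 libraries a group, the calls rest on unadjusted p-values. Most of the 15 alternatives reprocess the same libraries, so totals over all of them say less about the replicates than leaving out a library does. Over the 15 alternatives the 12 called members kept their direction in all 180 values and lost the call in 36, and the 11 called partners lost it in 36 of 164. The groups do not overlap for any of the 12 members, so leaving out a library could not turn a direction. The kept directions therefore say nothing about the replicates. Leaving out a library gave 3 to 9 members higher, 1 to 4 lower, a median log2 fold change of 0.15 to 0.47, 1 to 10 partners higher and 1 to 7 lower, with the lowest median and the fewest members higher without WT replicate 1. The log2 fold change of Tet1 ranged from -0.051 (without KO replicate 2, the sign reversed) to 1.36. Without a trend in eBayes 2 members were lower, 3 partners higher and 3 lower. These members were Efna1 and Epha1, and Epha1 was not called in the main fit. DESeq2 gave 4 members at an adjusted p under 0.05 where limma gave 0. Quantile normalization moved the median of all genes from -0.07 to 0.08 and the shares of all genes higher and lower to 6.41% and 6.74%, with 10 members higher and 4 lower. Of these 10, Epha7 and Dcc were not called in the main fit. WT and KO replicates that carry the same number showed little joint movement across genes (correlation -0.084). With 2 libraries a group, this value cannot decide whether such replicates shared a litter or a day of culture. The replicate block gave 7 members higher and 3 lower, 0 with adjustment, a median of 0.36, 6 and 4 partners, 0.66 for Tet1, and 762 and 1821 genes in all. The 3 lower were Efna1, Ntng2 and Ntn1, and Ntn1 was not called in the main fit. At 3 reads, the floor, a value is 2.70 to 3.21 normalized counts. This limits the tested members Slit1, Unc5a, Epha6, Epha7, Robo3 and Dcc, partners such as Dscam and markers such as Dcx.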
